A study of Mus musculus with 16 samples.

Results

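The data compare wild-type (WT) mouse hearts at 18 weeks of age with WT hearts at 3 weeks of age, 4 libraries at each age. These 8 libraries, chosen by the genotype and age in their labels, are part of a series of 16. The other 8 libraries are hearts of the same ages from R502W mice (zygosity not given), which carry a missense change in Mybpc3, the gene of cardiac myosin-binding protein C in the thick filament. The series concerns hypertrophic cardiomyopathy, and its labels cross genotype with age. Whole hearts were stored in RNAlater, and polyA-selected RNA was sequenced with a strand-specific protocol. The WT animals had no treatment or transgene that the labels name. Strain, sex, litter, time of day and batch are not given in the labels, and nor is whether each library is 1 animal, so a p-value here reflects the spread between samples, which may be technical.

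A mouse of 3 weeks is close to weaning and one of 18 weeks is an adult. In the weeks after birth, cardiomyocytes largely leave the cell cycle and grow by enlargement, take up more fatty acids as fuel, and exchange fetal forms of contractile and channel proteins for adult ones. Fibroblasts lay down and cross-link the collagen network of the ventricle over the same weeks, while elastic fibres are made mainly in early life.

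Levels are given as normalised CPM, reads scaled to a common library size, in the order of samples 1 to 4 of an age, and as mean ± SD over n = 4 libraries. Differences are log2(CPM + 1) at 18 weeks minus that at 3 weeks with their standard error (SE), a scale that understates the change of genes with low levels. A gene is said to have risen or fallen when limma's adjusted p was under 0.05 over all 14109 genes. The WT libraries held 17521147 to 25323320 reads, of which 20.5% to 26.1% came from mitochondrial genes. All 12 cardiomyocyte markers of a list were measured, with a summed level of 75640 to 76570 CPM at 3 weeks and 67240 to 78560 CPM at 18 weeks. Of these, Mybpc3 and the myoglobin gene Mb rose (16.7%, close to the 15.8% of all genes), and 0 fell. Along the first principal component (47.9% of the variance) the ages separated. Along the second (15.1%) sample 2 lay at one end of the 18-week libraries and samples 3 and 4 at the other. The 8 atrial markers differed in the same order, with a summed level of 525 to 1451 CPM at 3 weeks and 124 to 2464 CPM at 18 weeks. Among them the atrial light chain Myl7 stood at 141, 47.1, 104 and 125 CPM at 3 weeks and 67.7, 263, 15.6 and 9.43 CPM at 18 weeks, and none of the 8 passed the test. 18-week sample 2 was the highest of the 8 libraries for this gene and 18-week samples 3 and 4 the lowest. With 4 of these markers as a covariate 4153 genes were called, 3946 of them shared with the fit without it. In RNA of a whole organ, fewer cells of a type and less RNA per cell cannot be told apart.

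Between 3 and 18 weeks the WT heart changed at many genes and, for most of them, by little. Of 14109 genes, 4264 (30.2%) passed the test, 2231 higher (15.8%) and 2033 lower (14.4%) at 18 weeks. The gene lists set beside these shares below were chosen with earlier results of these data known, so their shares only describe. At least 2-fold differences were found for 156 of the risen and 116 of the fallen genes, and at least 4-fold differences for 14 and 12. The libraries of the ages did not overlap for 3402 of the called genes, and for 3964 (28.1%) of all genes. The median difference over all genes was −0.01. With any 1 of the 8 libraries left out, between 3575 and 4068 genes were called.

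**Figure D1:**
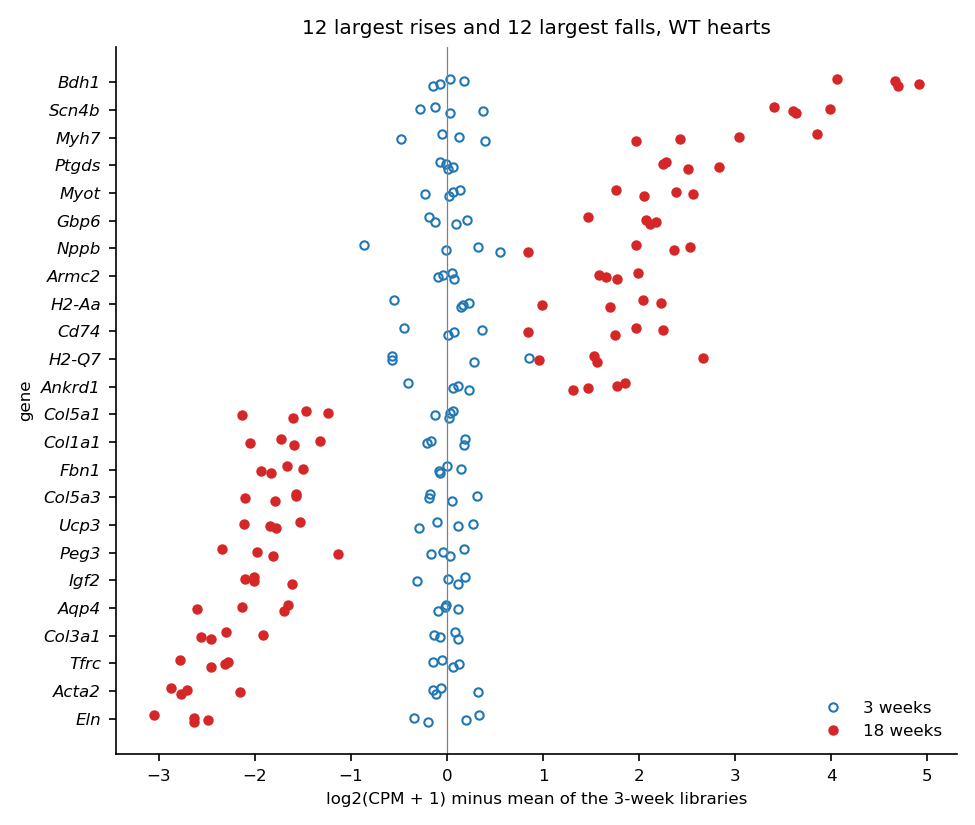
Level of each WT library relative to the mean of the 3-week libraries, as log2(CPM + 1), for the 12 largest rises and the 12 largest falls among called genes above the median level whose ages do not overlap. Open circles are 3-week and filled circles 18-week libraries (n = 4 each). Bdh1 and Scn4b stand apart at the top, and 6 of the 12 falls are matrix genes.

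The largest rise was that of Bdh1, the mitochondrial enzyme that converts the ketone body hydroxybutyrate to acetoacetate. It stood at 2.23, 2.399, 3.04 and 2.66 CPM at 3 weeks and 91.5, 106, 89.6 and 58.4 CPM at 18 weeks. Scn4b, a sodium channel beta subunit, stood at 3.804, 5.1, 2.86 and 3.31 CPM and then 57.5, 55.97, 73.4 and 48.8 CPM. The genes named for the largest rises and falls, here and below, were picked only where the ages did not overlap. In both genes the lowest adult library was far above the highest young one. Ptgds, which makes prostaglandin D, averaged 32.9 ± 1.26 CPM and 189 ± 37.2 CPM, and Armc2, which is needed to build sperm flagella, averaged 13.97 ± 0.814 CPM and 49.6 ± 6.29 CPM. Tfrc, the transferrin receptor for iron uptake, went the other way, from 237, 247, 204 and 219 CPM to 40.3, 44.8, 45.9 and 31.98 CPM (difference −2.46 ± 0.15 SE, adjusted p = 1.82e-09). Aqp4, a water channel, fell from 34.5 ± 2.18 CPM to 8.03 ± 2.56 CPM (difference −2.02 ± 0.25 SE, adjusted p = 9.12e-06).

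**Figure D2:**
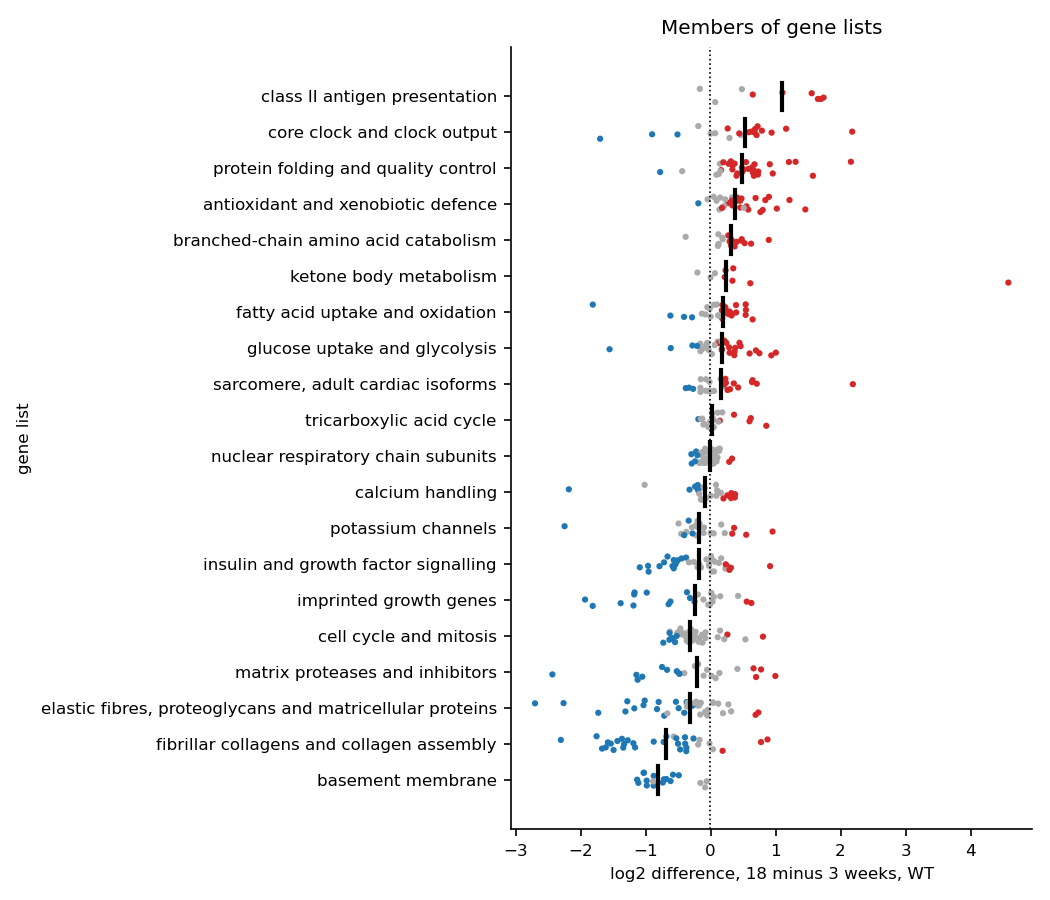
Difference between 18 and 3 weeks in WT (log2) for the measured members of 20 gene lists. Grey points are genes that did not pass the test, red and blue points are called genes higher and lower at 18 weeks, and the black bar is the median of the list. The medians run from −0.81 for basement membrane to 1.11 for class II antigen presentation, and the dotted line is the median of all genes, −0.01.

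Genes of the extracellular matrix made up 6 of the 12 largest falls. Of 33 measured genes for fibrillar collagens and their assembly, 25 fell and 3 rose (75.76% and 9.09%, against 14.4% and 15.8% of all genes). The other 5 did not pass the test, and the median difference was −0.68. Basement membrane genes fell in 14 of 18 (77.78%, against 14.4% of all genes) and rose in 0, with a median of −0.81. Col3a1, collagen III of reticular fibres, stood at 758, 663, 636 and 741 CPM at 3 weeks and 127, 118, 184 and 141 CPM at 18 weeks (difference −2.31 ± 0.15 SE, adjusted p = 2.48e-09). Col1a1, the main chain of collagen I, stood at 229, 175, 180 and 230 CPM and 66.4, 47.99, 80.2 and 60.2 CPM (difference −1.67 ± 0.17 SE, adjusted p = 9.49e-07). All adult libraries lay well under all young ones for both, where the naming rule required no overlap, with 18-week sample 3 the highest adult library. Col5a1 and Col5a3, chains of the collagen V that seeds collagen I fibrils, fell by 1.61 and 1.76, and Col1a2 fell by 1.34. Among the genes that process collagen, Loxl2, a cross-linking lysyl oxidase, stood at 57.3, 55.3, 65.3 and 61.3 CPM and 18.99, 16.2, 24.2 and 18.5 CPM (difference −1.58 ± 0.09 SE, adjusted p = 8.82e-10). Sparc, a matricellular protein that binds collagen, fell by 1.43, and Adamts2, which trims procollagen, fell by 1.36.

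The 3 risen members of the collagen list encode intracellular enzymes that hydroxylate collagen. P4ha1, a catalytic subunit of prolyl 4-hydroxylase, stood at 37.3, 35.6, 35.3 and 36.9 CPM at 3 weeks and 73.03, 70.9, 70.6 and 56.4 CPM at 18 weeks (difference 0.88 ± 0.08 SE, adjusted p = 3.77e-07). P4ha2, the other main catalytic subunit, rose from 29.2 ± 1.94 CPM to 50.7 ± 4.41 CPM (difference 0.78 ± 0.07 SE, adjusted p = 3.92e-07). Both rose without overlap while their collagen substrates fell. Plod3, a lysyl hydroxylase, rose by 0.18 (adjusted p = 0.0366), a call that ended when any 1 of 7 libraries was left out, all but 18-week sample 3 (adjusted p up to 0.0954).

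Basement membrane falls covered both main families of the sheet. Col4a1, the ubiquitous collagen IV chain, stood at 813, 664, 796 and 677 CPM at 3 weeks and 361, 274, 412 and 310 CPM at 18 weeks (difference −1.13 ± 0.12 SE, adjusted p = 1.70e-06), with no overlap. Col4a5 fell by 1.11, Col4a3 by 0.98 and Lamc1, the laminin gamma chain shared by most laminins, by 0.88. Of 38 elastic fibre, proteoglycan and matricellular genes 17 fell and 2 rose (44.74% and 5.26%, against 14.4% and 15.8% of all genes). Their median was −0.32. Eln, tropoelastin, stood at 146, 192, 133 and 212 CPM and 26.2, 29.1, 26.2 and 19.4 CPM, the largest fall under the naming rule (difference −2.70 ± 0.29 SE, adjusted p = 1.56e-06). Fbn1, the main microfibril protein, fell by 1.73, and Fbn2, the microfibril protein of developing tissue, went from 6.92 ± 1.03 CPM to 0.665 ± 0.329 CPM. On the log2(CPM + 1) scale Fbn2 fell by 2.26, and by 3.43 in edgeR on reads. Lum, a proteoglycan that spaces fibrils, and Emilin2 fell by 1.01 and 0.80, and Postn, periostin of activated fibroblasts, went from 82.3, 85.9, 77.3 and 93.3 CPM to 37.4, 48.6, 45.95 and 33.2 CPM. The risen members were Ccn2, a TGF-beta and YAP target (0.73, adjusted p = 0.0126), and Ccn5 (0.69, adjusted p = 0.0108). Ccn2 stood at 70.99, 123, 49.4 and 49.1 CPM in the adult libraries, with sample 2 well above the others.

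Matrix proteases and their inhibitors moved both ways. Of 22 genes 9 fell (40.9%, against 14.4% of all genes), 4 rose (18.2%, against 15.8%) and 9 did not pass the test. The fallen ones included the metalloproteinases Adamts12 (difference −2.44 ± 0.13 SE), Mmp2 (difference −1.14 ± 0.11 SE), Mmp14 (difference −1.12 ± 0.12 SE) and Adamts9 (difference −0.75 ± 0.07 SE). Among the risen genes, Timp3 and Timp4, tissue inhibitors of metalloproteinases, rose by 0.66 and 0.78. The gelatinase Mmp9 rose too, at 0.404 ± 0.247 CPM and 1.28 ± 0.358 CPM.

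Markers of the cells that make matrix were lower as well. Of 18 fibroblast markers 13 fell and 3 rose (72.22% and 16.67%, against 14.4% and 15.8% of all genes). Their summed level was 3253 to 3591 CPM at 3 weeks and 2123 to 2231 CPM at 18 weeks. The list holds collagen genes already counted above. The 3 risen fibroblast markers were Hsd11b1, which regenerates active glucocorticoid (difference 1.52 ± 0.16 SE), Dpep1 (0.54) and Ly6a (0.53). Of 13 markers of activated fibroblasts 6 fell (46.15%, against 14.4% of all genes) and 0 rose. The summed level of this list was 475 to 606 CPM at 3 weeks and 136 to 213 CPM at 18 weeks. Most of that sum at 3 weeks was the smooth muscle actin Acta2, given below, which averaged 359 ± 59.03 CPM and 58.1 ± 14.4 CPM. They included Tnc, tenascin C of remodelling matrix (difference −1.28 ± 0.24 SE), and Ccn4 (difference −1.21 ± 0.22 SE). Of 16 pericyte and smooth muscle markers 8 fell (50%, against 14.4% of all genes), and 5 without 18-week sample 1, without 18-week sample 2 or without 3-week sample 2. The summed level of the list was 2857 to 3160 CPM at 3 weeks and 2304 to 2873 CPM at 18 weeks. Its 1 risen member, the intermediate filament gene Des (0.21, adjusted p = 0.0469), is also a muscle gene, and its call ended without any 1 library other than 18-week sample 2 (adjusted p up to 0.137) and under quantile normalization. Acta2, smooth muscle actin, stood at 328, 447, 322 and 340 CPM and 51.5, 79.3, 53.6 and 47.9 CPM (difference −2.62 ± 0.18 SE, adjusted p = 7.06e-09), and Myl9, a smooth muscle light chain, fell by 1.46. Myh11, the myosin that defines smooth muscle, stood at 47.9, 82.4, 48.3 and 96.97 CPM and 39.99, 46.8, 40.7 and 27.8 CPM and did not pass the test (adjusted p = 0.0642), but fell by 0.91 without 3-week sample 1 or 3 (adjusted p up to 0.048). Whether the fall of matrix genes followed the number of these cells was not tested.

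**Figure D3:**
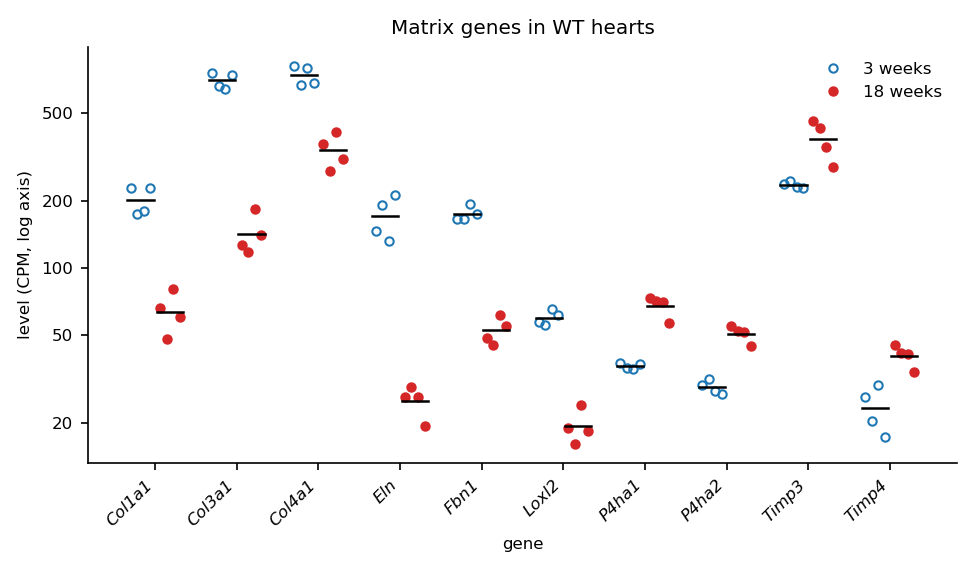
Level of 10 matrix genes in the 8 WT libraries, in CPM on a log axis, with open circles for 3 weeks, filled circles for 18 weeks and a bar at each mean (n = 4). The structural genes Col1a1, Col3a1, Col4a1, Eln and Fbn1 and the cross-linking enzyme gene Loxl2 lie lower at 18 weeks, and P4ha1, P4ha2, Timp3 and Timp4 lie higher.

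In the sarcomere, several main filament proteins did not pass the test, while others of the adult list rose. Of 25 adult cardiac sarcomere genes 11 rose and 3 fell (44% and 12%, against 15.8% and 14.4% of all genes). The other 11 did not pass the test, and the median was 0.16. Under quantile normalization 6 rose and 5 fell. Myh6, the adult alpha-myosin heavy chain, averaged 30470 ± 943 CPM and 27480 ± 3291 CPM (adjusted p = 0.352). Tnnt2 (difference 0.01), Tnni3 (−0.02), Actc1 (−0.07), Ttn (−0.07) and the ventricular light chain Myl2 (0.20), all core parts of the thin or thick filament or the titin spring, did not pass the test either, though Myl2 rose by 0.26 without 18-week sample 2 (adjusted p = 0.038). Mybpc3 rose by 0.24 (adjusted p = 0.0181), from 2532 ± 64.4 CPM to 2986 ± 223 CPM. The call ended without 3-week sample 1, 18-week sample 1 or 18-week sample 4 (adjusted p up to 0.0596), and also under quantile normalization.

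The largest rises of the list were those of Myot, Flnc and Tcap, which encode proteins of the Z-disc. Myot, myotilin, stood at 8.54, 6.995, 8.81 and 9.34 CPM at 3 weeks and 37.9, 54.5, 47.9 and 30.7 CPM at 18 weeks. Flnc, filamin C, stood at 226, 224, 254 and 215 CPM and 385, 344, 442 and 340 CPM (difference 0.71 ± 0.09 SE, adjusted p = 1.13e-05). Tcap, the titin cap, stood at 635, 665, 551 and 696 CPM and 932, 939, 1037 and 1072 CPM (difference 0.65 ± 0.09 SE, adjusted p = 1.81e-05). Every adult library was above every young one in all 3, which the naming rule required for Myot. Mylk3, the kinase that phosphorylates the ventricular light chain, rose by 0.36. Ankrd1, a titin-associated stretch-responsive protein counted with the fetal and skeletal isoforms below, rose by 1.60. The 3 fallen members of the adult list were Tmod1, which caps thin filaments (−0.27), Nebl, the cardiac nebulin relative, also of the Z-disc (−0.38), and Tpm1, tropomyosin (−0.33).

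Among 18 measured fetal and skeletal isoforms 5 rose and 5 fell (27.8% each, against 15.8% and 14.4% of all genes). Without 18-week sample 2, 8 fell. Xirp2, an actin-binding protein of the intercalated disc, stood at 339, 394, 399 and 344 CPM at 3 weeks and 761, 631, 909 and 858 CPM at 18 weeks (difference 1.09 ± 0.12 SE, adjusted p = 1.98e-06), and Myh7b rose by 0.74. Tnnt1, slow skeletal troponin T, fell by 0.84, and Tnni1, the fetal troponin I, was near the floor at both ages, 0.981 ± 0.371 and 0.278 ± 0.223 CPM. Myh7, the slow beta-myosin gene that dominates the ventricle before birth, rose rather than fell (difference 2.82 ± 0.41 SE, adjusted p = 3.84e-05). Its levels were 20.99, 10.95, 17.2 and 15.1 CPM at 3 weeks and 64.3, 88.8, 136 and 239 CPM at 18 weeks, so that the adult libraries spread widely, with sample 4 the highest and no overlap. Per kilobase of exon, Myh7 made up 0.0411% ± 0.0105 of the Myh6 and Myh7 sum at 3 weeks and 0.377% ± 0.216 at 18 weeks (SD, n = 4), a minor share at both ages. Acta1, skeletal actin, was 1.42% ± 0.304 and 2.38% ± 0.763 of the Acta1 and Actc1 sum on the same scale. Its rise (0.65, adjusted p = 0.0251) was not called when any 1 of 4 libraries was left out, 3-week sample 1 or 3 or 18-week sample 2 or 3 (adjusted p up to 0.0886). These actin and myosin pairs are near copies that share reads, so their minor members are uncertain. Of the natriuretic peptides, Nppb stood at 27.1, 18.1, 23.1 and 9.55 CPM and 33.4, 97.8, 110 and 74.3 CPM. Nppa, which is also an atrial gene, stood at 727, 266, 543 and 446 CPM and 356, 1373, 104 and 64.7 CPM and did not pass the test (adjusted p = 0.2702), but fell by 1.79 without 18-week sample 2 (adjusted p = 0.0058).

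Calcium handling genes moved both ways. Of 25 genes 6 rose and 6 fell (24.0% each, against 15.8% and 14.4% of all genes), and under quantile normalization 3 rose and 9 fell. The number of risen genes was 2 or 3 without 3-week sample 1, 3 or 4 or 18-week sample 1 or 4. Atp2a2, the sarcoplasmic calcium pump, averaged 13910 ± 598 CPM and 15550 ± 1233 CPM and did not pass the test (adjusted p = 0.223), but rose by 0.17 in DESeq2 on reads (adjusted p = 0.0259). Neither Pln, phospholamban (0.08), nor Ryr2, the ryanodine receptor (−0.12), passed the test. Ryr2 fell by 0.19 without 3-week sample 1 (adjusted p = 0.031). Casq1, skeletal calsequestrin, stood at 26.5, 22.2, 30.4 and 15.9 CPM at 3 weeks and 4.46, 4.81, 3.63 and 4.45 CPM at 18 weeks (difference −2.18 ± 0.16 SE, adjusted p = 2.24e-08), the largest change among these genes. Its share of the Casq1 and Casq2 sum per kilobase of exon went from 3.74% ± 0.940 to 0.833% ± 0.101 (SD, n = 4), and Casq2, the cardiac form, itself fell by 0.24. Jph2, which ties the T-tubule to the sarcoplasmic reticulum, stood at 324, 347, 346 and 336 CPM and 461, 410, 433 and 456 CPM (difference 0.38 ± 0.05 SE, adjusted p = 1.37e-05). S100a1, a calcium sensor that binds the pump and the release channel, rose by 0.37.

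Scn4b and Cacna1s rose, whereas Cacna1g and the pacemaker channel Hcn2 fell. Of 21 sodium, calcium and pacemaker channel genes 6 rose and 4 fell (28.57% and 19.05%, against 15.8% and 14.4% of all genes). Beside Scn4b, given above, Cacna1s, the skeletal L-type calcium channel, rose from 3.97 ± 0.633 CPM to 11.6 ± 1.78 CPM. Cacna1g, the T-type calcium channel of the young heart, stood at 37.1, 34.7, 40.7 and 33.5 CPM at 3 weeks and 19.8, 18.3, 12.04 and 18.4 CPM at 18 weeks (difference −1.07 ± 0.13 SE, adjusted p = 6.42e-06), and no libraries overlapped. The other T-type gene measured, Cacna1h, was at 15.9 ± 2.84 and 15.5 ± 4.42 CPM and did not pass the test. Hcn2, a pacemaker channel, fell by 0.61 and Cacna1d by 0.62. Hcn4, the sinus node pacemaker channel, fell by 0.45 (adjusted p = 0.0273), a call that ended when any 1 of 5 libraries was left out, 3-week sample 1, 2 or 3 or 18-week sample 2 or 3 (adjusted p up to 0.101).

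Among 24 potassium channel genes 4 rose and 4 fell (16.7% each, close to the 15.8% and 14.4% of all genes), and 7 fell without 18-week sample 4. Kcne1, a subunit of the slow delayed rectifier channel, stood at 26.3, 24.3, 28.4 and 36.5 CPM at 3 weeks and 4.21, 3.49, 8.302 and 5.897 CPM at 18 weeks (difference −2.25 ± 0.17 SE, adjusted p = 2.51e-08). Every adult library was well under every young one. Kcnj11, the pore of the ATP-sensitive channel, rose by 0.36 while Abcc8, one of its sulfonylurea receptors, fell by 0.41. Kcnv2, a silent subunit, rose by 0.95. Kcnj2, the inward rectifier (−0.21), did not pass the test, nor did Kcnip2, the subunit of the transient outward current (−0.10), except that Kcnip2 fell by 0.20 without 18-week sample 4 (adjusted p = 0.043).

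Of 20 genes of T-tubules and the dystrophin complex 6 rose and 5 fell (30.0% and 25.0%, against 15.8% and 14.4% of all genes). Cav3, muscle caveolin, stood at 47.98, 50.2, 42.1 and 44.9 CPM at 3 weeks and 29.2, 30.6, 27.3 and 30.6 CPM at 18 weeks (difference −0.63 ± 0.06 SE, adjusted p = 5.40e-07), and Sntb1, a syntrophin, fell by 1.38. Ahnak, a large scaffold under the membrane, rose by 0.49, and Popdc3, a cyclic AMP-binding membrane protein, rose by 0.61 while its relative Bves fell by 0.36. Of 20 intercalated disc genes 3 rose, a share close to that of all genes, and 6 fell (15.0% and 30.0%). Nrap, an anchor of thin filaments at the disc, rose by 0.68; Gjc1, connexin 45 of the developing and conducting heart, fell by 0.56, and the desmosomal cadherin Dsc2 fell by 0.54. Gja1, connexin 43 of the working ventricle, fell by 0.30 (adjusted p = 0.0449), from 381, 382, 328 and 358 CPM to 242, 245, 353 and 357 CPM, where 18-week samples 3 and 4 lay within the young range. That call ended when any 1 of 5 libraries was left out (adjusted p up to 0.169), namely 3-week sample 1, 2 or 4 or 18-week sample 1 or 2.

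Genes of fuel use rose more often than all genes did, and differed in which fuel and which step. Of 34 genes of fatty acid uptake and oxidation 20 rose and 4 fell (58.8% and 11.8%, against 15.8% and 14.4% of all genes), with a median of 0.19. Under quantile normalization 12 rose and 4 fell, with a median of 0.10. Hadhb, a subunit of the trifunctional protein of beta-oxidation, stood at 1230, 1403, 1362 and 1272 CPM at 3 weeks and 1841, 1928, 1848 and 2037 CPM at 18 weeks (difference 0.54 ± 0.07 SE, adjusted p = 1.15e-05). Ech1 rose by 0.65, the short-chain dehydrogenase Acads by 0.54, and Lpl, the lipase that frees fatty acids from lipoproteins, by 0.54. Cpt1b, the muscle form of the enzyme that admits fatty acids to mitochondria, rose by 0.30, while Cpt1a, the liver and fetal form, fell by 0.41. Per kilobase of exon, Cpt1a went from 7.87% ± 1.07 to 4.93% ± 0.166 of the pair (SD, n = 4). Ucp3, a mitochondrial carrier induced by fatty acids, stood at 113, 150, 167 and 128 CPM and 39.7, 37.96, 31.2 and 47.4 CPM (difference −1.81 ± 0.15 SE, adjusted p = 5.26e-08). The other fallen members were Acot1, a thioesterase (−0.62, adjusted p = 0.01799; p up to 0.0752 without 3-week sample 3 or 18-week sample 2), and Fabp4, a fatty acid carrier of capillaries and fat (−0.29, adjusted p = 0.02595; p up to 0.106 without 3-week sample 1 or 2 or 18-week sample 1).

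Ketone use rose in 6 of 9 measured genes (66.67%, against 15.8% of all genes) and fell in 0, with a median of 0.23. Beside Bdh1, given above, Slc16a1, the transporter of ketones and lactate, stood at 171, 188, 166 and 141 CPM at 3 weeks and 238, 268, 272 and 238 CPM at 18 weeks (difference 0.61 ± 0.08 SE, adjusted p = 1.15e-05). Oxct1, the rate-limiting enzyme of ketone use, rose by 0.34, and Acat1, which splits acetoacetyl-CoA, by 0.35. None of the other measured genes of the list changed as much as Bdh1.

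Of 32 genes of glucose uptake and glycolysis 17 rose and 4 fell (53.1% and 12.5%, against 15.8% and 14.4% of all genes). Their median was 0.17. The count of risen genes was 11 without 18-week sample 1 or sample 4, and quantile normalization gave 11 risen and 9 fallen. Hk2, the insulin-responsive hexokinase, stood at 214, 218, 203 and 210 CPM at 3 weeks and 366, 362, 343 and 355 CPM at 18 weeks (difference 0.75 ± 0.04 SE, adjusted p = 8.86e-10). Hk1, the fetal-type hexokinase, did not pass the test (−0.16, adjusted p = 0.185) except under quantile normalization, where it fell by 0.24 (adjusted p = 0.029), and per kilobase of exon its share of the pair went from 33.2% ± 1.55 to 21% ± 2.75 (SD, n = 4). Slc2a4, the insulin-regulated transporter GLUT4, rose by 0.37, and Slc2a1, the constitutive transporter GLUT1, rose by 1.00. On the per-kilobase scale the Slc2a1 share of these transporters went from 2.49% ± 0.269 to 4.15% ± 0.845, higher at 18 weeks. Pdk4, a kinase that inhibits pyruvate dehydrogenase in fasting, stood at 783, 1284, 1813 and 899 CPM and 383, 438, 415 and 313 CPM (difference −1.56 ± 0.19 SE, adjusted p = 5.76e-06). By contrast Pdk1, another of these kinases, stood at 125, 131, 128 and 131 CPM and 199, 201, 225 and 213 CPM (difference 0.70 ± 0.05 SE, adjusted p = 4.65e-09). Pfkl, liver phosphofructokinase, rose by 0.46 and Pfkp, the platelet form, fell by 0.61.

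Glycogen genes rose in 10 of 19 and fell in 1 (52.63% and 5.26%, against 15.8% and 14.4% of all genes), with a median of 0.21. Ppp1r3c, which targets a phosphatase to glycogen and favours synthesis, stood at 56.7, 54.01, 53.4 and 60.8 CPM at 3 weeks and 110, 110, 108 and 86.3 CPM at 18 weeks (difference 0.86 ± 0.08 SE, adjusted p = 2.47e-07). Ugp2, which makes the glucose donor, rose by 0.61, and Gaa, the lysosomal enzyme that degrades glycogen, rose by 0.70. Breakdown of branched-chain amino acids had 12 risen (63.16%, against 15.8% of all genes) and 0 fallen of 19, with a median of 0.32. Bckdha, a subunit of the committing dehydrogenase, stood at 108, 104, 97.9 and 104 CPM and 185, 180, 185 and 224 CPM (difference 0.90 ± 0.07 SE, adjusted p = 4.60e-08), and Ivd, of the leucine path, rose by 0.62. In both genes every adult library exceeded every young one.

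By contrast, few genes of the respiratory chain passed the test. Of 45 nuclear subunits of the respiratory chain 2 rose and 6 fell (4.44% and 13.3%, against 15.8% and 14.4% of all genes). Their median was −0.00. Quantile normalization gave 2 and 18, and leaving out 18-week sample 2 gave 3 and 4. The risen subunits included Ndufs7 (0.33) of complex I. The fallen ones included Uqcrb (−0.30), Cox6b1 (−0.29), Atp5o (−0.24) and Atp5g3 (−0.20). In the tricarboxylic acid cycle 5 of 21 rose and 1 fell (23.81% and 4.76%, where all genes gave 15.8% and 14.4%), against 4 and 7 under quantile normalization. Those that rose included Idh2, the NADP-linked isocitrate dehydrogenase (difference 0.60 ± 0.06 SE), Suclg2 (0.62) and Pcx, pyruvate carboxylase, which refills the cycle (0.86). The fallen gene was Cs, citrate synthase (−0.19, limma adjusted p = 0.0237), and without 18-week sample 2 the fallen count was 0. Of 15 transcripts of the mitochondrial genome 1, mt-Co3, rose (0.44, adjusted p = 0.0338), a call that ended when any 1 of 5 libraries was left out (3-week sample 1, 2 or 4 or 18-week sample 3 or 4; adjusted p up to 0.119) and under quantile normalization; nuclear copies of these genes make their levels uncertain. Ckm, muscle creatine kinase, averaged 1375 ± 31.7 CPM and 1378 ± 96.5 CPM (adjusted p = 0.991), but fell by 0.22 under quantile normalization (adjusted p = 0.0065), while Slc6a8, the creatine transporter, rose by 0.71 and Ckb, the brain-type kinase, fell by 0.54.

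Regulators of these paths rose in 9 of 21 and fell in 1 (42.86% and 4.76%, against 15.8% and 14.4% of all genes). Ppara, the receptor that drives fatty acid oxidation genes, stood at 19.8, 20.99, 25.9 and 26.4 CPM at 3 weeks and 50.6, 49.96, 43.3 and 36.7 CPM at 18 weeks (difference 0.93 ± 0.11 SE, adjusted p = 6.81e-06). Perm1, a muscle regulator of mitochondrial genes, rose by 0.54, and Klf15, a regulator of lipid and amino acid use, stood at 24.8, 25.9, 23.7 and 29.6 CPM and 67.1, 52.96, 47.1 and 52.6 CPM (difference 1.04 ± 0.10 SE, adjusted p = 2.75e-07). Ppargc1a, the coactivator PGC-1alpha, stood at 257, 244, 140 and 132 CPM in the adult libraries, against 117, 115, 141 and 113 CPM in the young ones. Its adult samples 1 and 2 were high and samples 3 and 4 overlapped the young range. Its call (0.60, adjusted p = 0.0174) ended without 18-week sample 1 or without sample 2 (adjusted p up to 0.0727).

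Some genes of cell division fell, from levels that were already low at 3 weeks. Of 37 cell cycle genes 7 fell (18.9%, against 14.4% of all genes), 2 rose and 28 did not pass the test, with a median of −0.31; 3 fell without 3-week sample 1. Mki67, the marker of cycling cells, stood at 17.8, 6.995, 11.7 and 11.1 CPM at 3 weeks and 5.84, 5.93, 8.26 and 5.997 CPM at 18 weeks (difference −0.73 ± 0.20 SE, adjusted p = 0.00914). Top2a, topoisomerase of replicating DNA, stood at 8.71, 4.17, 8.495 and 5.96 CPM and 3.08, 3.68, 5.36 and 3.71 CPM (difference −0.63 ± 0.18 SE, adjusted p = 0.0135), a call that ended without 3-week sample 1 or 3 (adjusted p up to 0.0541). In both genes the young libraries overlapped the adult ones, with 3-week sample 1 the highest. Nusap1, of the mitotic spindle, fell without overlap (difference −0.63 ± 0.18 SE, adjusted p = 0.01099), and Cdk1 (−0.48) and Ccnb1 (−0.35) did not pass the test. The 2 risen members were the D-type cyclins Ccnd1, at 53.2, 37.4, 35.99 and 34.5 CPM and 76.2, 59.01, 78.5 and 68.3 CPM, and Ccnd2 (0.26). The summed level of the list, these cyclins included, was 264 to 335 CPM at 3 weeks and 316 to 368 CPM at 18 weeks. Of 29 replication genes 4 fell (13.8%, a share close to that of all genes), of which Mcm7, of the replicative helicase, had the smallest p (difference −0.47 ± 0.10 SE, adjusted p = 0.00124). That count was 2 under quantile normalization and 1 or 2 without 3-week sample 1 or 18-week sample 1, 3 or 4. Of 16 genes that restrain the cycle 7 fell (43.75%, against 14.4% of all genes) and 0 rose. The fallen ones included Cdkn1b, p27 (difference −0.44 ± 0.05 SE, adjusted p = 6.05e-06), and Meis1, a homeobox gene that keeps postnatal cardiomyocytes from dividing (−0.37, adjusted p = 0.01001).

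Mitotic genes often carry a cell cycle homology region, TTTGAA, near their start site, with CCAAT boxes upstream. Of the 7 fallen cell cycle genes 6 held TTTGAA on either strand in a RefSeq window of 250 bases before to 50 after the start site (build GRCm38.p6). It was in 20.2% of all genes with a window and in 14.4% of those in the table. CCAAT was in 6 of the 7, against 41.1% of all genes with a window and 42.8% of those in the table. Among all 29 measured cell cycle genes with a window, 21 held TTTGAA, so most genes that did not fall held it too. The 200 bases before the start are shown for Mki67, Top2a and Kif11, 3 fallen genes with the element (capitals mark TTTGAA or its reverse complement), at chr7:135716380-135716579 (minus strand), chr11:99024190-99024389 (minus strand) and chr19:37376182-37376381 (plus strand).
Mki67: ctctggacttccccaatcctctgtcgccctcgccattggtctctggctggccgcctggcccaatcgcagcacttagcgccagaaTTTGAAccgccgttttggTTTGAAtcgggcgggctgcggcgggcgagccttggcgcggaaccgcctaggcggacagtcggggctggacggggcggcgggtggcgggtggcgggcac
Top2a: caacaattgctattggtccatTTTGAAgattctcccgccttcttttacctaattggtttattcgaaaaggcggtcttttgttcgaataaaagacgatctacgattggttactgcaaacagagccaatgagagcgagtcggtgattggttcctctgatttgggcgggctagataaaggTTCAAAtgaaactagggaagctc
Kif11: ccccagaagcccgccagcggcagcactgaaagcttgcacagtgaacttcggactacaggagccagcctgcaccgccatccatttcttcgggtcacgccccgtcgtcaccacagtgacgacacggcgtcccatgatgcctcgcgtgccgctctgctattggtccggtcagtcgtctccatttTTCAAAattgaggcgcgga
The elements lie at −116 and −98 in Mki67, −179 and −23 in Top2a and −19 in Kif11, counted to the start site. Kif11, a spindle motor chosen after its values were seen, fell by 0.61 (adjusted p = 0.0212; p up to 0.0822 without 3-week sample 1 or 18-week sample 1 or 4). A match describes these letters and is no evidence of binding.

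Many growth genes of fetal life fell. Of 23 measured imprinted genes 12 fell (52.2%, against 14.4% of all genes) and 2 rose, with a median of −0.25. Igf2, the fetal growth factor, stood at 99.04, 73.1, 91.5 and 104 CPM at 3 weeks and 29.1, 21.9, 20.4 and 21.97 CPM at 18 weeks (difference −1.93 ± 0.14 SE, adjusted p = 9.29e-09). H19, its reciprocally imprinted neighbour, stood at 57.2, 49.5, 57.7 and 55.3 CPM and 32.9, 29.9, 16.7 and 18.5 CPM (difference −1.19 ± 0.23 SE, adjusted p = 6.33e-04). Peg3, a zinc finger gene of fetal growth, stood at 53.5, 46.6, 50.7 and 59.2 CPM and 14.3, 23.3, 12.5 and 9.53 CPM (difference −1.82 ± 0.18 SE, adjusted p = 5.22e-07). All 3 fell without overlap, which the naming rule required for Igf2 and Peg3. For Peg3 and H19 the adult samples 3 and 4 were the lowest. Plagl1, a regulator of several imprinted genes, fell by 1.38, and Slc38a4, an amino acid transporter, fell by 1.17. The risen members were Impact (0.63), a translation regulator, and Zrsr1 (0.56), a splicing factor relative. Insulin and growth factor signalling had 5 risen and 14 fallen of 37 (13.5% and 37.8%, against 15.8% and 14.4% of all genes). Irs1, the insulin receptor substrate, stood at 53.2, 44.8, 54.6 and 52.3 CPM and 30.3, 29.7, 21.96 and 22.1 CPM (difference −0.96 ± 0.11 SE, adjusted p = 3.53e-06), while the receptor Insr rose by 0.25. Ptn, pleiotrophin, fell by 1.09, and Fgfr3 rose by 0.92.

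Most genes of the circadian clock differed between the ages. Of 20 genes 12 rose and 3 fell (60% and 15%, against 15.8% and 14.4% of all genes). The other 5 did not pass the test, and the median was 0.53. The 3 fallen genes were the activator arm, whose proteins bind E-boxes. Arntl (BMAL1) stood at 8.03, 6.23, 9.49 and 5.13 CPM at 3 weeks and 1.35, 1.52, 1.38 and 1.67 CPM at 18 weeks (difference −1.70 ± 0.19 SE, adjusted p = 1.99e-06). Its partners Clock and Npas2 fell by 0.51 and 0.90. Among repressors and outputs, Ciart stood at 2.62, 2.197, 2.01 and 4.48 CPM and 17.3, 18.03, 12.98 and 15.5 CPM (difference 2.18 ± 0.18 SE, adjusted p = 5.80e-08). Per2 stood at 16.9, 19.4, 12.8 and 21.6 CPM and 43, 51.8, 35.2 and 33.02 CPM (difference 1.16 ± 0.22 SE, adjusted p = 5.03e-04). Dbp, a D-box activator driven by the clock, stood at 74.4, 78.1, 42.7 and 77.9 CPM and 123, 109, 135 and 149 CPM (difference 0.94 ± 0.15 SE, adjusted p = 1.45e-04). No library of one age overlapped the other in these 4 genes. Cry2 (0.63) and Bhlhe41 (0.79) also rose, whereas Per1 (0.46, adjusted p = 0.302) and the repressor Nr1d1 (−0.19, adjusted p = 0.297) did not pass the test. Per1, Per2, Per3, Cry1, Dbp and Nr1d1 were chosen after their values were seen. The hour at which hearts of each age were collected is not given, so hour and age cannot be told apart for these genes.

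Clock genes are driven through the E-box CACGTG and the D-box TTATGTAA. Of the 10 risen clock genes with a RefSeq window, Cry1, Tef, Ciart and Bhlhe41 held CACGTG, and 0 of the 3 fallen ones did. It was in 8.09% of all genes with a window and in 11.6% of those in the table. Of all 17 measured clock genes with a window 5 held CACGTG, the other being Per1, which did not pass the test. Per3 held TTATGTAA, against 1.11% of all genes with a window. The 200 bases before the start of Ciart, Cry1 and Per3 are shown because they carry these elements in genes that rose, with the element in capitals, at chr3:95882229-95882428, chr10:85185055-85185254 and chr4:151044666-151044865 (GRCm38.p6, all minus strand).
Ciart: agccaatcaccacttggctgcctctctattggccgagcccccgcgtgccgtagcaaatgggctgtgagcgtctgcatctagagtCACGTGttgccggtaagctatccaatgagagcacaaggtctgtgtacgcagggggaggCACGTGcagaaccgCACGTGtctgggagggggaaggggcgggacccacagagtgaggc
Cry1: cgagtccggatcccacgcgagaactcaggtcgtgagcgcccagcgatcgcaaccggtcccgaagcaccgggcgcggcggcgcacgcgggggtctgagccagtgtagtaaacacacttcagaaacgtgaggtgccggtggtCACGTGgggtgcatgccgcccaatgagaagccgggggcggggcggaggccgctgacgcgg
Per3: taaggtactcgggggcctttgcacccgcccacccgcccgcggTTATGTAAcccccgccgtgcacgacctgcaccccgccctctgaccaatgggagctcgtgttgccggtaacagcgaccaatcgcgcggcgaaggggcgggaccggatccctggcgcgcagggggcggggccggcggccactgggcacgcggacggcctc
Ciart holds 3 E-boxes, at −116, −58 and −44. Cry1 and Per3 hold 1 element each. Ciart had the largest rise of the list, and Cry1 and Per3 rose by 0.68 and 0.71. Whether these elements bear on the rises was not tested. Positions are counted to the RefSeq start; by GENCODE M21, 23 of the bases shown for Ciart and 10 of those for Cry1 lie in an annotated exon.

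**Figure D4:**
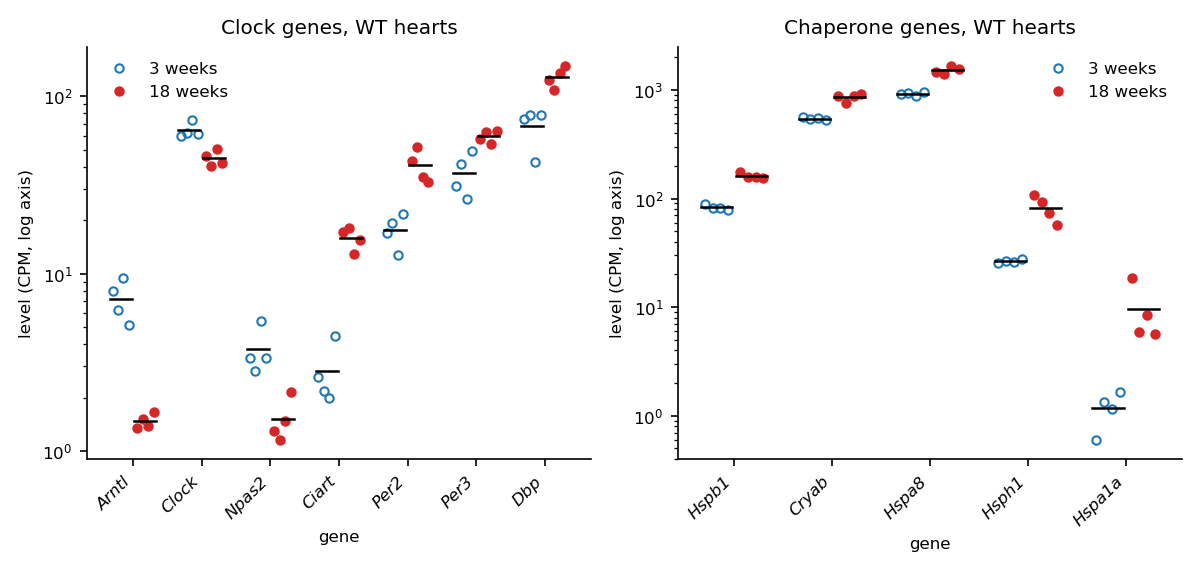
Level of 7 clock genes (left) and 5 chaperone genes (right) in the 8 WT libraries, in CPM on a log axis, with open circles for 3 weeks, filled circles for 18 weeks and a bar at each mean (n = 4). Arntl, Clock and Npas2 lie lower at 18 weeks and the other clock genes and all 5 chaperones lie higher.

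Targets of glucocorticoid and thyroid hormone moved both ways, with 6 risen and 6 fallen of 23 (26.1% each, against 15.8% and 14.4% of all genes). The glucocorticoid-induced genes among the risen differed strongly between adult libraries. Zbtb16 stood at 194, 191, 139 and 58.8 CPM at 18 weeks against 49.1, 43.9, 55.4 and 43.8 CPM at 3 weeks. Fkbp5, a glucocorticoid receptor co-chaperone chosen after its values were seen, stood at 64.4, 61.2, 29.6 and 16.8 CPM against 16.4, 13.8, 15.4 and 12.2 CPM. The metallothionein Mt2 stood at 38.4, 58.4, 25.1 and 12.7 CPM against 11.9, 11.5, 13.7 and 11.2 CPM. In all 3 genes samples 1 and 2 were high and sample 4 lay close to the young hearts. Tsc22d3, another such target, did not pass the test (−0.04). Angptl4, an inhibitor of Lpl induced by fasting, stood at 24.3, 25.1, 40.5 and 9.94 CPM and 5.63, 5.04, 3.34 and 3.66 CPM (difference −2.13 ± 0.28 SE, adjusted p = 1.38e-05). Thra, the main cardiac thyroid hormone receptor, fell by 0.52. Of 23 immediate early genes 7 rose (30.43%, against 15.8% of all genes) and 0 fell. The risen ones included Ier5 (difference 1.22 ± 0.12 SE), Ier3 (0.89) and Nr4a3, whose adult libraries stood at 18.5, 13.2, 8.91 and 5.15 CPM.

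Protein folding showed the largest share of risen genes among the lists described, which were chosen with earlier results of these data known. Of 33 genes 27 rose (81.8%, against 15.8% of all genes), 1 fell and 5 did not pass the test, with a median of 0.49. Hspb1, a small heat-shock protein, stood at 88.5, 81.2, 82.2 and 79.04 CPM at 3 weeks and 177, 158, 156 and 155 CPM at 18 weeks (difference 0.96 ± 0.08 SE, adjusted p = 8.34e-08). Cryab, alpha B-crystallin, which guards desmin and titin, stood at 561, 537, 555 and 523 CPM and 878, 760, 873 and 919 CPM (difference 0.65 ± 0.06 SE, adjusted p = 1.89e-07). Hspa8, the constitutive Hsp70 and chosen after its values were seen, stood at 914, 939, 879 and 955 CPM and 1470, 1414, 1670 and 1568 CPM (difference 0.73 ± 0.07 SE, adjusted p = 6.27e-07). These 3 chaperones varied little within an age and did not overlap between ages. Others spread more between adult hearts. Hsph1, an Hsp70 exchange factor, stood at 107, 92.02, 73.7 and 57.4 CPM in adult hearts against 25.2, 26.6, 25.9 and 27.8 CPM, and Hspa1a, inducible Hsp70, at 18.6, 5.93, 8.44 and 5.65 CPM against 0.592, 1.35, 1.15 and 1.67 CPM. Hspa1a, also chosen after its values were seen, has a near-identical copy, Hspa1b, that can share its reads. The 1 fallen member was Chac1, a target of the unfolded protein response (difference −0.78 ± 0.20 SE, adjusted p = 0.00633). The summed level of the list was 7057 to 7346 CPM at 3 weeks and 10140 to 10810 CPM at 18 weeks.

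Heat-shock factors bind inverted repeats of GAA. The form GAANNTTC, chosen after the values were seen, was on either strand in 10 of the 22 risen folding genes with a RefSeq window. It was in 9.04% of all genes with a window and in 7.06% of those in the table. Among all 28 measured folding genes with a window, 11 held it. Hspa1a and Hspb1 are shown over the 200 bases before their start, with the repeat in capitals, at chr17:34972157-34972356 (minus strand) and chr5:135887719-135887918 (plus strand) of GRCm38.p6.
Hspa1a: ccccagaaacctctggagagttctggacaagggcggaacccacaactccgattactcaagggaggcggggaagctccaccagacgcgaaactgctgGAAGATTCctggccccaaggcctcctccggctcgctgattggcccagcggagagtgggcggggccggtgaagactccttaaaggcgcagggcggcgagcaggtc
Hspb1: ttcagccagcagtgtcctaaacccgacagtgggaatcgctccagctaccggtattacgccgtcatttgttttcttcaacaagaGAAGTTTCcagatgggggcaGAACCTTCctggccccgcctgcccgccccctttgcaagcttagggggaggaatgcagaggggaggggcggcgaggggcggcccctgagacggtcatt
Hspa1a holds 1 such repeat, at −104, and Hspb1 holds 2, at −117 and −97. Whether these repeats bear on the rises was not tested.

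Antioxidant genes followed a like course, with 21 of 33 risen (63.64%, against 15.8% of all genes), 1 fallen and a median of 0.37. Gpx4, which reduces lipid peroxides, stood at 192, 191, 172 and 176 CPM at 3 weeks and 298, 301, 324 and 322 CPM at 18 weeks (difference 0.77 ± 0.06 SE, adjusted p = 1.61e-08). The glutathione transferases Gstm2 and Gstm1 rose by 0.84 and 0.58, and Nqo1, a quinone reductase and NRF2 target, by 0.80. The fallen member, Gpx1 (−0.19, adjusted p = 0.0498), lay at the threshold, and its call ended when any 1 of 5 libraries was left out (3-week sample 1, 2 or 4 or 18-week sample 1 or 4; adjusted p up to 0.164). Cytosolic ribosomal protein genes had 2 risen and 9 fallen of 45 (4.44% and 20%, against 15.8% and 14.4% of all genes). Their median was −0.07. The fallen count was 18 under quantile normalization and ranged from 3 to 5 without 3-week sample 1, 2 or 3 or 18-week sample 1, 2 or 3.

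Many genes of antigen presentation were higher in adult hearts. Class II genes, which mark macrophages, dendritic cells and B cells, rose in 6 of 9 measured (66.67%, against 15.8% of all genes). None fell, and their median was 1.11. H2-Aa stood at 10.1, 10.2, 10.7 and 5.78 CPM at 3 weeks and 31.3, 18.8, 45.7 and 39.8 CPM at 18 weeks, H2-Ab1 rose by 1.56, and the invariant chain Cd74 stood at 22.4, 23.3, 28.7 and 15.9 CPM and 76.5, 40.4, 109 and 89.3 CPM. In each of these genes the ages did not overlap, which the naming rule required for H2-Aa and Cd74, and 18-week sample 2 was the lowest adult library. Class I genes rose in 12 of 20 (60%, against 15.8% of all genes) and fell in 0, with a median of 0.54. Without 3-week sample 4, 7 rose. Nlrc5, the class I transactivator, stood at 3.13, 2.56, 4.21 and 1.88 CPM and 10.1, 6.12, 15.3 and 7.29 CPM (difference 1.40 ± 0.31 SE, adjusted p = 0.00192), and the peptide transporter Tap2 and the immunoproteasome subunit Psmb8 rose by 0.54 and 0.72. 18-week sample 3 was the highest library for all 3. Reads of class I genes such as H2-Q6 and H2-Q7 can be shared between near copies, which makes their split uncertain. Interferon-inducible genes rose in 8 of 39 and fell in 1, a share of 20.5% against 15.8% of all genes. Complement and coagulation genes rose in 8 of 24 and fell in 2 (33.33% and 8.33%, against 15.8% and 14.4% of all genes), with 5 risen without 3-week sample 4. C3 stood at 62.8, 70.1, 51.5 and 59.6 CPM and 199, 171, 165 and 107 CPM (difference 1.35 ± 0.24 SE, adjusted p = 3.24e-04), C4b rose by 1.13, and C7, of the terminal pathway, rose by 1.73. Markers of the presenting cells gave no single direction. Of 17 measured macrophage markers 0 rose and 4 fell (23.5%, against 14.4% of all genes). Their summed level was 387 to 459 CPM at 3 weeks and 353 to 478 CPM at 18 weeks. Of 13 markers of monocytes and dendritic cells 4 were measured, and 3 rose, with a summed level of 21.6 to 28.7 CPM and 37.2 to 66.7 CPM. Of 14 markers of B and plasma cells 7 were measured, and 0 rose and 1 fell (14.29%, close to the 14.4% of all genes). Their summed level was 33.2 to 35.7 CPM and 16.9 to 26.2 CPM. The part of cell numbers in the rise of class II genes was not tested.

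R502W hearts, whose libraries are separate from the WT ones, changed with age mostly as WT hearts did. Of the 4264 genes called in WT, 4102 (96.2%) had the same sign in R502W, against 77.7% of all genes. Those called in the same direction in both numbered 3030, which is 71.1% of the WT calls and 60.0% of the 5048 R502W calls, and 5 genes were called in opposite directions. The test of the difference between the genotypes called 11 genes (0.078%) by limma, 9 of them with the WT change lower. edgeR on reads called 0, with 1475 genes at an unadjusted p under 0.05 against 1496 by limma, and DESeq2 called 106. Without any difference, about 1 in 20 of the 14109 genes would have such a p, which is fewer than either count. A gene not called may therefore still differ between the genotypes. With 1 library left out limma called between 0 and 82 genes. It called 82 without WT 18-week sample 4, 18 without R502W 18-week sample 2, and 0 without WT 18-week sample 1, WT 3-week sample 3 or R502W 3-week sample 3. It called 1 to 6 without WT 18-week sample 2, WT 3-week sample 2 or 4, R502W 18-week sample 1, 3 or 4, or R502W 3-week sample 2 or 4.

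Several of the 11 genes are muscle genes that rose in both genotypes and rose less in WT. Acta1 rose by 0.65 in WT and by 2.43 in R502W (difference −1.78 ± 0.30 SE, limma adjusted p = 0.0283). Myot rose by 2.19 and 3.26 (difference −1.07 ± 0.19 SE, adjusted p = 0.0394), and Abra, which binds actin and stimulates SRF-dependent transcription and was chosen after its values were seen, by 1.42 and 2.51 (difference −1.09 ± 0.20 SE, adjusted p = 0.0441). Lrrcc1, a centrosomal protein, stood at 10.2, 7.197, 10.2 and 10.3 CPM and 8.95, 10.1, 12.98 and 11.2 CPM in WT and did not pass the test there, while it rose by 1.24 in R502W (difference −1.07 ± 0.16 SE, adjusted p = 0.0239). Nlrc3, an innate immune regulator, went the same way (0.05 in WT and 1.62 in R502W, adjusted p of the difference = 0.0283). Fgf6, a muscle growth factor, Kcnc1, a potassium channel, Gdf15, a stress cytokine, and Vgll2, a TEAD cofactor, were called with mean WT levels of at most 1.49 CPM at either age. Gdf15 and Vgll2 were chosen after their values were seen. Among the larger age effects, no difference was detectable for Myh7, which rose by 2.82 in WT and 4.43 in R502W (difference −1.61 ± 0.57 SE, adjusted p = 0.328). The same held for Eln (−2.70 and −3.32, difference 0.62 ± 0.41 SE), Col3a1 (−2.31 and −2.19, difference −0.12 ± 0.21 SE) and Bdh1 (4.58 and 4.59, difference −0.01 ± 0.22 SE). By list, the medians in WT and R502W were −0.68 and −0.58 for collagens, −0.81 and −0.78 for basement membrane, 0.53 and 0.71 for the clock, and 0.49 and 0.42 for protein folding. None of the members of these lists was called in the test of the difference. Some other medians differed in sign. They were −0.57 in WT and 0.44 in R502W for fetal and skeletal sarcomere isoforms (Acta1 called in that test) and −0.98 and 1.41 for atrial markers (0 called). Cell cycle genes had medians of the same sign, −0.31 in WT and −0.57 in R502W, and 0 were called in that test. Of these 37 genes 2 rose and 7 fell in WT, and 21 were called in R502W, where 5048 of all 14109 genes were called. Ppara rose by 0.93 in WT and by 0.18 in R502W, and Ppargc1a changed by 0.60 and −0.47 (limma adjusted p of the difference = 0.0919 and 0.128). For the glucocorticoid targets the R502W differences were 0.18 (Fkbp5), 0.34 (Zbtb16) and 0.11 (Mt2), and adjusted p-values of the difference ran from 0.324 to 0.344.

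**Figure D5:**
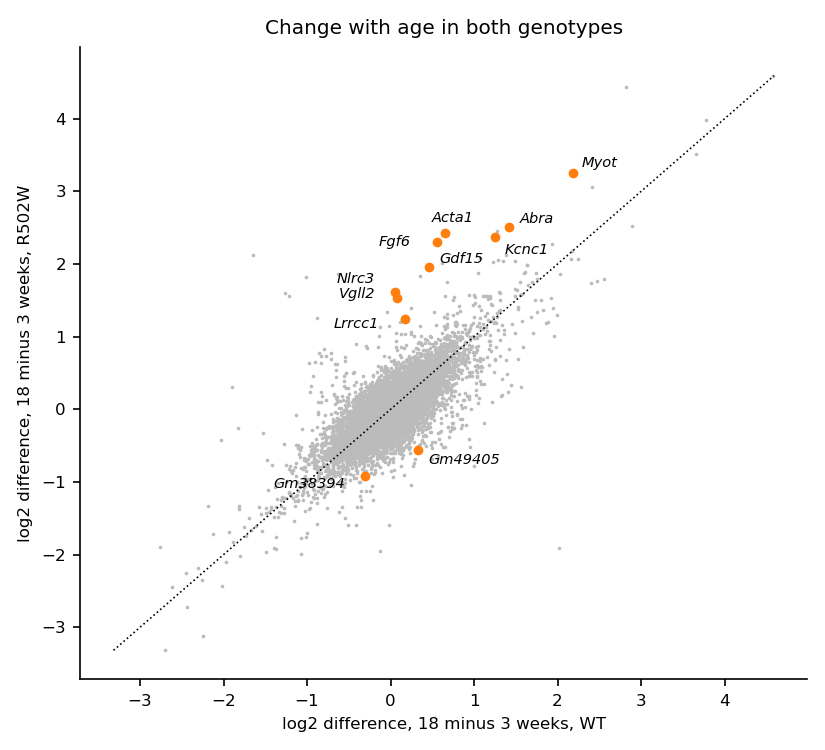
Change from 3 to 18 weeks (log2) in WT hearts, on the x axis, against R502W hearts, on the y axis, for 14109 genes. Grey points are all genes, orange points the 11 called in the test of the difference, and the dotted line marks equal change. Of the labelled genes, Acta1, Myot, Abra, Lrrcc1, Fgf6, Kcnc1, Nlrc3, Gdf15 and Vgll2 lie above the line.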

How the data were processed

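RNA of mouse hearts was sequenced in 16 libraries, and the 8 WT libraries were compared by age, 4 against 4, with the groups taken from the labels. The deposited table gives, for 14109 genes, a normalised signal on the linear scale, called CPM here. Judged from the deposited values, it is reads plus a small offset over an effective library size; the labels do not state the formula. The submitters' processing notes name cutadapt, FastQC, RSEM, limma and GRCm38; no versions are given there. Whole reads could be recovered for 100% of values within 0.01 read, with 17521147 to 25323320 reads per WT library. The deposited scaling matched edgeR's TMM factors. Of the identifiers, 14096 matched GENCODE M21.

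Log2(CPM + 1) of all 16 libraries was fitted with limma 3.58.1 (R 4.3.3) with a mean-variance trend, and p-values were adjusted over all genes by Benjamini-Hochberg. Reads of 14109 genes were simulated for WT age, with changes put only into a sample of genes above a minimum number of reads. Of these changed genes, 59.7% were recovered at 1.5-fold, 91.0% at 2-fold and 97.0% at 4-fold. Depth limits low genes, which these rates do not cover. Alternatives were other pseudocounts, a filter on low levels, quantile and median-of-ratios scaling, only the WT libraries, no trend, robust moderation, library weights, a replicate block, an atrial covariate, edgeR 4.0.16 and DESeq2 1.42.0 on recovered reads, and leaving out each library. No library was left out of the main values, and replicates differed by more than sampling noise.

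The gene lists and members were chosen with earlier results of these data known. Named genes are the 12 largest rises and 12 largest falls among called genes with an established name, above the median level and without overlap; a panel of 42 maturation genes, of which 1 is not in the table; up to 4 called members in each direction of a described list; and up to 6 genes of the genotype comparison. Abra, Cry1, Dbp, Fkbp5, Gdf15, Hspa1a, Hspa1b, Hspa8, Kif11, Mb, Myh11, Myl7, Nr1d1, Per1, Per2, Per3, Tef, Tsc22d3 and Vgll2 were chosen after their values were seen. Some genes that these rules name are not reported here. Promoter sequences are from RefSeq.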

Additional observations from a re-analysis of the deposited data

Results flagged for a closer look

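Among the 4 libraries of 1 age, a library stood apart from its group (its gap to the nearest other library, as a share of the range of log2(CPM + 1), was past the 95% critical value of Dixon's test) in 25 of 446 groups of gene and age. Chance gives about 1 in 20. 3-week sample 1 stood apart for Nebl (lowest, at 443 CPM, share 0.936). 3-week sample 2 stood apart for Acta2 (highest, at 447 CPM, share 0.833), Kcnv2 (highest, at 10.2 CPM, share 0.9196) and Lrrcc1 (lowest, at 7.197 CPM, share 0.966). 3-week sample 3 stood apart for Acot1 (highest, at 35.1 CPM, share 0.844), Dbp (lowest, at 42.7 CPM, share 0.919), Mylk3 (lowest, at 514 CPM, share 0.92) and Perm1 (highest, at 232 CPM, share 0.862). 3-week sample 4 stood apart for Ccnd2 (highest, at 115 CPM, share 0.945), H2-Aa (lowest, at 5.78 CPM, share 0.903) and Sox4 (lowest, at 31.95 CPM, share 0.934). 18-week sample 1 stood apart for Casq2 (lowest, at 687 CPM, share 0.8398), Fabp4 (lowest, at 298 CPM, share 0.923) and Hspb1 (highest, at 177 CPM, share 0.871). 18-week sample 2 stood apart for Adamts2 (lowest, at 14.5 CPM, share 0.8295), Des (lowest, at 1082 CPM, share 0.843) and Pfkl (lowest, at 99.1 CPM, share 0.984). 18-week sample 3 stood apart for Cacna1g (lowest, at 12.04 CPM, share 0.845) and Mki67 (highest, at 8.26 CPM, share 0.924). 18-week sample 4 stood apart for Bckdha (highest, at 224 CPM, share 0.866), Mcam (lowest, at 30.03 CPM, share 0.846), Myh7b (highest, at 137 CPM, share 0.8293), P4ha1 (lowest, at 56.4 CPM, share 0.869), Ppp1r3c (lowest, at 86.3 CPM, share 0.902) and Tnnt2 (highest, at 6081 CPM, share 0.962).

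For 11 genes limma's test found that the change with age differed between WT and R502W. The WT change minus the R502W change on the log2 scale, and the number of the 28 alternatives in which it was called, were as follows: Fgf6 (−1.74, called in 21), Lrrcc1 (−1.07, called in 21), Acta1 (−1.78, called in 13), Nlrc3 (−1.57, called in 17), Kcnc1 (−1.13, called in 17), Gm38394 (0.61, called in 13), Vgll2 (−1.45, called in 8), Myot (−1.07, called in 12), Gdf15 (−1.50, called in 12), Gm49405 (0.89, called in 11) and Abra (−1.09, called in 9). WT libraries at 3 weeks held at most 0.0845 CPM of Kcnc1, and for this gene the difference was 1.12 in edgeR and 1.40 in DESeq2, neither called.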

How the results depend on the processing

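The number of genes called between 18 and 3 weeks in WT stayed within 1.5 times of 4264 under all 21 alternatives, as did the counts in each direction, with 3575 to 4068 genes when 1 library was left out. The median difference over all genes stayed between −0.01 and 0.00. Of 197 called genes followed under each alternative, 182 stayed called under all 21. Deviations of same-numbered libraries correlated between −0.0772 and 0.0164, and those of other pairs between −0.0791 and 0.0897. With deviations taken from means of only 4 libraries, these values cannot tell whether sample numbers pair the libraries. With the sample number as a block 3904 genes were called, 3755 of them shared, and the genotype comparison called 0.

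The number of genes whose change differed between WT and R502W was far less stable. Against 11 called, there were 0 with pseudocount 0.1, 25 with pseudocount 4, 4 without the trend, 21 with library weights, 28 with the atrial covariate, 0 by edgeR, 106 by DESeq2, 0 with the replicate block and 0 to 82 when 1 library was left out; the cause was not tested. In that comparison Kcnc1 turned from −1.13 to 1.12 by edgeR and 1.40 by DESeq2.

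Most reversals in WT were of differences near 0; the largest difference that reversed was that of Myl7 (−1.21, adjusted p = 0.491). Under quantile normalization the reversed values were Atp2a2 −0.0431, Ckm −0.216, Des −0.0105 and Tnni3 0.0242. With the atrial covariate the reversed values were Cacna1h 0.129, Ckm −0.02698, Myl7 0.00214 and Tnnt2 −0.0102. With 1 library left out the values that changed sign ranged from −0.212 to 0.0644 for Cacna1h, −0.0301 to 0.0484 for Ckm, −0.0403 to 0.128 for Nlrc3, −0.0707 to 0.0191 for Tnni3, −0.0174 to 0.0181 for Tnnt2, −0.138 to 0.0377 for Tsc22d3 and −0.105 to 0.000412 for Ttn. For each the cause was not tested. List counts of 0 to 2 members moved by 1 or 2 under several alternatives. Depth limits genes near 1 CPM, whose differences are understated on the log2(CPM + 1) scale.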

Other observations

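Many genes of the lysosome and of autophagy rose. Of 29 measured genes 14 rose and 2 fell (48.28% and 6.90%, against 15.8% and 14.4% of all genes), with a median difference of 0.15. Ctsd, the main lysosomal aspartic protease, stood at 473, 511, 473 and 485 CPM at 3 weeks and 782, 785, 848 and 815 CPM at 18 weeks (difference 0.73 ± 0.05 SE, limma adjusted p = 4.15e-09). Sqstm1, the autophagy receptor p62, averaged 216 ± 15.5 CPM and 345 ± 22.6 CPM, and Gabarapl1, which coats autophagosomes, averaged 54.8 ± 0.957 CPM and 94.2 ± 10.2 CPM. All adult libraries exceeded all young ones in these 3 genes. The fallen members included Trim63, the muscle ubiquitin ligase MuRF1 (difference −0.32 ± 0.07 SE), and 1 fell without 18-week sample 2 or without 3-week sample 1, 3 or 4. In serine, one-carbon and amino acid synthesis 12 of 24 rose and 2 fell (50% and 8.33%), with a median of 0.27. Without 18-week sample 1, 7 rose. Glul, glutamine synthetase, stood at 219, 207, 245 and 223 CPM and 466, 400, 414 and 426 CPM (difference 0.93 ± 0.08 SE, adjusted p = 1.26e-07). Shmt1, the cytosolic serine hydroxymethyltransferase, rose by 1.02, while Aldh1l2, a mitochondrial folate enzyme, fell by 0.77.

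In a list of fetal RNA-binding proteins and let-7 targets 5 of 14 measured genes fell (35.71%, against 14.4% of all genes) and 1, Hmga1, rose. The Hmga1 rise of 0.27 was lost when any 1 of 5 libraries was left out (3-week sample 1 or 2 or 18-week sample 1, 3 or 4). Dnmt3a, a de novo DNA methyltransferase, stood at 97.1, 99.8, 107 and 118 CPM at 3 weeks and 56.1, 61.6, 53.95 and 70.4 CPM at 18 weeks (difference −0.80 ± 0.08 SE, adjusted p = 1.49e-06). Tet1, which oxidises methylated cytosine, stood at 16.1, 21.8, 17.5 and 23.2 CPM and 5.48, 7.39, 4.98 and 7.54 CPM (difference −1.49 ± 0.13 SE, adjusted p = 1.45e-07), and Ezh2, the histone methyltransferase of Polycomb, fell by 0.67. No libraries of the ages overlapped for these 3. Sox4, a transcription factor, fell by 1.13. Of 14 markers of angiogenic endothelium 7 fell (50%, against 14.4% of all genes) and 0 rose. Their summed level was 1500 to 1781 CPM at 3 weeks and 693 to 1021 CPM at 18 weeks. The list holds basement membrane genes counted above, and Mcam, an adhesion molecule of vessels, fell by 0.57. Of 13 pan-endothelial markers 2 rose (15.38%, close to the 15.8% of all genes) and 5 fell (38.46%, against 14.4%). Their summed level was 1197 to 1346 CPM and 1062 to 1285 CPM.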
